A study of Anas platyrhynchos with 8 samples.

Results

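Muscle contractile genes were followed through bulk RNA-seq of duck abdominal fat (Anas platyrhynchos), a tissue whose vessels have smooth muscle in their walls and which has no skeletal muscle fibres of its own. The genes were taken by symbol from the deposited mRNA table, with the estimated counts of all rows of a symbol added. Of 37 symbols, 12 mark smooth muscle and mural cells and 25 mark skeletal muscle, and 24 were in the table, among 13213 symbols in all. These were 7 of the smooth muscle and 17 of the skeletal muscle genes. The other 13, not listed under that symbol, were CNN1, LMOD1, KCNMB1, ACTG2 and NOTCH3 of the first kind and MYLPF, CKM, ATP2A1, MYBPC2, RYR1, TNNT1, PYGM and CASQ1 of the second.

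Both muscle types slide actin over myosin, but they build and switch the machine differently. Skeletal muscle packs it into sarcomeres, where calcium binds the troponin complex on the thin filament, titin spans the half-sarcomere as a spring, nebulin lines the thin filament and alpha-actinin ties filaments together at the Z-disc. Smooth muscle has no troponin. There myosin light chain kinase (MYLK) phosphorylates the regulatory light chain, and the transcriptional coactivator myocardin (MYOCD) drives genes such as ACTA2, MYH11 and TAGLN in mammals. Pericytes, the mural cells of capillaries, share part of this programme, and RGS5 is a marker of them in mammals.

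The ducks came from an F2 population kept under one set of conditions, and the fat was taken at day 42. The labels give 4 libraries from ducks with a high abdominal fat ratio (HF-1 to HF-4) and 4 from ducks with a low ratio (LF-1 to LF-4), and no other treatment or genotype. They do not say whether a library is 1 bird or a pool, so the p-values below measure only the spread between these libraries, which may be technical. In bulk tissue, fewer cells of a type and less RNA per cell cannot be told apart. The libraries held 12696240 to 30836178 estimated counts. In 8 rows whose descriptions name the W chromosome, carried by female birds, HF-1 to HF-4 held 4225, 1817, 3409 and 2846 counts and LF-4 held 2861, while LF-1, LF-2 and LF-3 held 8, 7 and 3. No label gives the birds' sex. The groups therefore differ in these transcripts as well as in fat, and LF-4 is the one LF library that has them. Fat cell markers were abundant in every library: the 8 adipocyte genes examined summed to between 31187 and 46048 CPM (reads scaled to library size, normalised by the trimmed mean of M-values) in HF and between 45281 and 87776 in LF.

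The skeletal muscle genes separated 2 libraries from the other 6, one in each fat group, and only ALPK3 passed a test between high and low fat. LF-3 was highest for 14 of the 15 skeletal genes other than ALPK3 that had at least 10 counts, against 9.99% of the 11725 symbols with that many. HF-3 came second in 12 of those 15, against 0.878% of symbols for LF-3 first and HF-3 second. The 3 exceptions were MYBPC1 and the row listed as MYL2, at 0 in HF-3, and TNNC1, which was highest in HF-3. In 14 of the 15, all but TNNC1, LF-3 was over 2 times the highest of the 6 libraries not numbered 3, against 0.955% of symbols. None of the 7 smooth muscle genes had LF-3 highest, which is little different from the 9.99% of all symbols. MYH11 was nearly level in LF-2 (366.3 CPM) and LF-3 (365.9 CPM). Since LF-3 and HF-3 were already known to stand apart, the counts are a description.

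Of the reads of the 16 skeletal genes other than ALPK3, titin (TTN) carried 75.8% in LF-3 and 56.2% in HF-3. In the other 6 libraries TTN carried 16.8% to 45.3%. It stood at 9.49, 3.51, 121 and 20.8 CPM in HF-1 to HF-4 and at 7.40, 3.84, 889 and 2.11 CPM in LF-1 to LF-4. LF-3 was highest and HF-3 second, with HF-4 next, and the groups overlapped. The mean was 38.7 ± 55.3 CPM in HF against 225 ± 442 CPM in LF (SD, n = 4 each). The log2 fold change, HF against LF, was -2.54 ± 1.81 (SE) and did not pass edgeR's quasi-likelihood test (adjusted p = 0.553). Without LF-3 it was 3.16 (adjusted p = 0.293), so 1 library set its sign.

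On the thin filament, skeletal alpha-actin (ACTA1) was at 9.62, 8.55, 59.9 and 18.8 CPM in HF-1 to HF-4 and at 17.3, 14.9, 128 and 4.34 CPM in LF-1 to LF-4. LF-3 and HF-3 again stood above the other 6, which overlapped between the groups. Of the 3 rows summed under this symbol, the one whose accession is ACTA1 in RefSeq held 39.9 CPM in HF-3, 115 in LF-3 and between 0.729 and 6.92 in the other libraries. The other 2 rows, for which no RefSeq symbol was found, held between 3.61 and 20.0 CPM and were much more even. Actin paralogs are nearly identical, so the split of reads among them by the quantifier is uncertain. Nebulin (NEB), the ruler-like protein along the thin filament, was at 11.9 CPM in HF-3 and 60.8 in LF-3, and between 1.08 and 1.66 in the other 6.

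Among the troponins, the calcium switch of the thin filament, fast troponin T (TNNT3) was at 3.41 CPM in HF-3 and 15.1 in LF-3 and at no more than 0.414 in the other 6 libraries. Fast troponin I (TNNI2) was at 3.59 and 9.56 CPM in HF-3 and LF-3 and between 0.241 and 0.511 elsewhere. Fast troponin C (TNNC2) was lower, at 0.629 and 1.25 CPM. All 3 of these fast-fibre genes were thus highest in LF-3 and second in HF-3. Of the slow-fibre forms, troponin I (TNNI1) had 5 counts in LF-3 and at most 1 in any other library. Troponin C of slow and heart muscle (TNNC1) had 10 counts in HF-3, 3 in LF-3 and at most 1 elsewhere. For scale, 3 counts are 0.135 CPM in HF-3 and 0.139 in LF-3.

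Among thick filament genes, the fast myosin light chain MYL1 was at 6.29 CPM in HF-3 and 23.8 in LF-3 and at no more than 0.782 elsewhere. Slow myosin-binding protein C (MYBPC1), which braces the thick filament, was the most uneven member. It had 387 counts in LF-3, 1 in HF-2, 2 in HF-4 and 0 in the other 5 libraries, HF-3 among them. The single row listed as MYL2 had 11 counts in LF-3, 2 in LF-1, 1 in LF-2 and 0 in the rest. Its description and its RefSeq accession both name MYL10, so MYL2 itself was not measured here.

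At the Z-disc, alpha-actinin 2 (ACTN2) was at 0.332, 0.804, 3.05 and 1.10 CPM in HF-1 to HF-4 and at 1.29, 1.11, 12.9 and 0.405 CPM in LF-1 to LF-4. LDB3, a scaffold that binds alpha-actinin, was at 2.2 CPM in HF-3 and 6.77 in LF-3, with LF-1 close to HF-3 at 2.09. Myozenin 1 (MYOZ1), a calcineurin-binding Z-disc protein of fast fibres, had 12 counts in HF-3, 35 in LF-3 and at most 4 in any other library. For all 3 genes LF-3 was highest and HF-3 second. Calsequestrin 2 (CASQ2), a calcium store of the sarcoplasmic reticulum, was at 1.17 and 2.78 CPM in HF-3 and LF-3 and at no more than 0.365 elsewhere. Myoglobin (MB), the oxygen-binding protein of muscle, was at 1.17 and 1.90 CPM there and between 0.138 and 0.241 elsewhere.

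**Figure D1:**
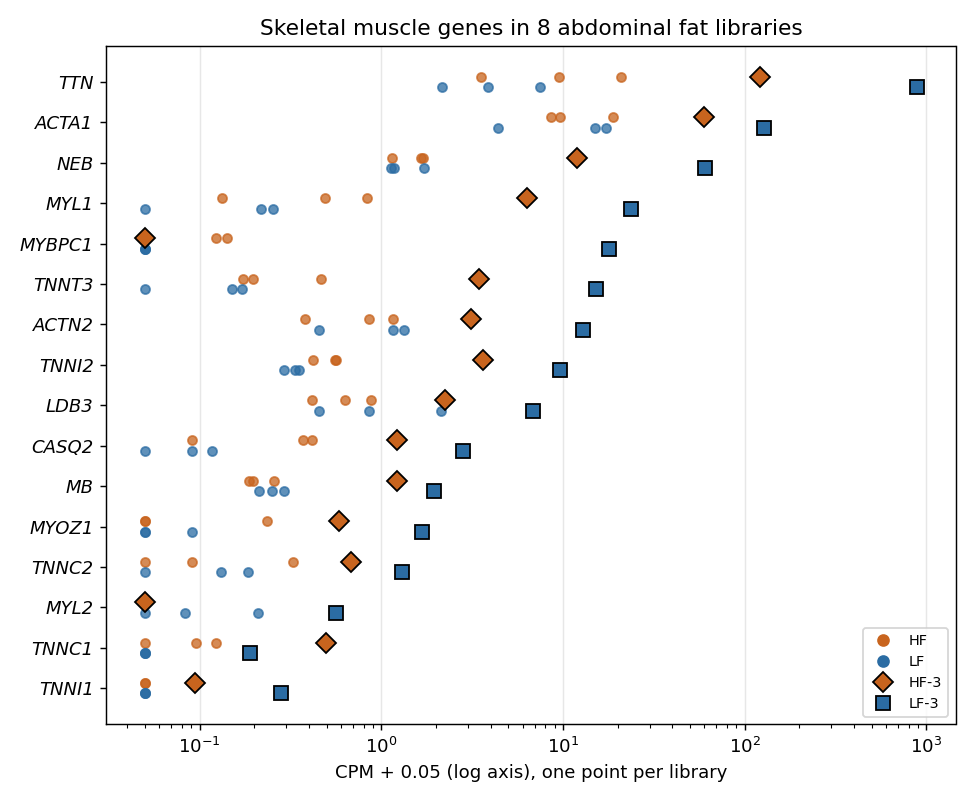
Level of each skeletal muscle gene other than ALPK3 in the 8 libraries, 1 point per library, on a log axis of CPM + 0.05. HF is orange, LF blue, and HF-3 and LF-3 have a diamond and a square. LF-3 lies furthest right for TTN (889 CPM) and for all other genes plotted except TNNC1, and HF-3 usually lies next.

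The genes can be compared with each other only per length. On the authors' FPKM scale, summed over the rows of a symbol, ACTA1 led in LF-3 at 85.7, followed by MYL1 at 25.1, TNNT3 at 11.8, TNNI2 at 10.7 and TTN at 8.65 FPKM. In HF-3 ACTA1 was again first at 39.1 FPKM, with MYL1 at 6.65, TNNI2 at 3.96, TNNT3 at 2.60 and TTN at 1.15. TTN, whose transcript is very long, led only in CPM. For scale, smooth muscle actin ACTA2 lay between 55.4 and 190 FPKM over the 8 libraries. Together the 16 skeletal genes other than ALPK3 held 0.120% of the counts of LF-3 and 0.0216% of those of HF-3.

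The striated muscle genes stood in different proportions in LF-3 and HF-3. They were compared over the 39 striated muscle genes, members and others of a wider list, with at least 10 counts in the pair and with either library over 2 times the highest of the other 6. Of these, 34 had counts in both. Among the 34, 32 were higher in LF-3 and 2 in HF-3, with a median LF-3 to HF-3 ratio of 3.31. Each library is 1 sample, so the 95% exact binomial intervals that follow cover counting error only. The ratio was 2.14 for ACTA1 (2.001 to 2.28) and 3.78 for MYL1 (3.13 to 4.59). The ACTA1 ratio is that of its 3 rows added. Its RefSeq row held 115 CPM in LF-3 and 39.9 in HF-3. The other 2 rows, for which no RefSeq symbol was found, held 13.3 and 20.0 CPM and lower the ratio. For NEB it was 5.11 (4.48 to 5.85) and for TTN 7.35 (7.06 to 7.65). The MYL1 and NEB intervals overlap, while those of TTN and of the ACTA1 sum lie apart from both and from each other. No interval was computed for the RefSeq row of ACTA1 alone. For TNNC1 the ratio was 0.310 (0.0548 to 1.20), an interval that includes equal levels.

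Genes found in one of the pair and scarcely in the other marked the contrast further. MYBPC1, with 387 counts in LF-3 and 0 in HF-3, was at least 108-fold higher in LF-3 by the lower bound of that interval. The M-band gene MYOM1, which links thick filaments at the sarcomere centre, had 68 counts in LF-3 and 0 in HF-3, and the slow myosin heavy chain MYH7 had 11 and 0. The fast myosin heavy chain MYH1 went the other way, with 28 counts in HF-3 and 2 in LF-3, a ratio of 0.0738 (0.00852 to 0.293). MYH1B was at 45.1 CPM in LF-3 and 19.9 in HF-3. Myosin heavy chains form a multigene family whose members share sequence, so reads may have been assigned between them.

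**Figure D2:**
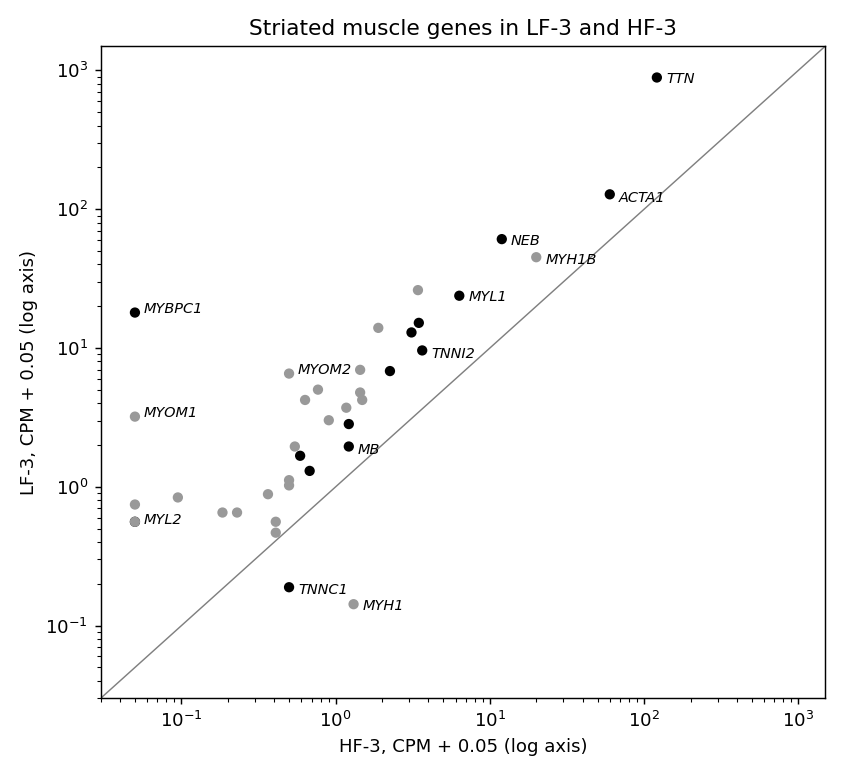
Level of the 39 striated muscle genes in LF-3 (vertical) against HF-3 (horizontal), both as CPM + 0.05 on log axes, 1 point per gene, with the genes followed here in black, other muscle genes in grey and a line where both are equal. Most genes lie above the line of equality (median ratio 3.31), with MYH1 and TNNC1 below it and MYBPC1 at the left edge, where HF-3 is at 0.

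Wider lists of muscle genes were read in the same way. Of 65 other skeletal muscle genes, 54 were in the table and 43 had at least 10 counts, and LF-3 was highest for 28 of these, against 9.99% of symbols. HF-3 was second to LF-3 in 15 of the 43, against 0.878%, and highest in 6, against 17.2%. None of the 22 that could be tested passed edgeR's test at an adjusted p of 0.05. An unadjusted p under 0.05 was seen for 5, against 15% of tested symbols, and DESeq2 called 1, against 5.67%. The smallest p belonged to JPH2, a junctophilin that couples membrane to calcium store, at 360 ± 66.5 CPM in HF against 166 ± 61.6 in LF (log2 fold change 1.12 ± 0.27, edgeR adjusted p = 0.102). MYPN, a Z-disc protein that binds nebulin and alpha-actinin, came next at 1.33 ± 0.359 and 3.59 ± 2.51 CPM (-1.45 ± 0.55, edgeR adjusted p = 0.256), with LF-3 highest at 6.91. JPH2 did not follow the sarcomere genes, since LF-3 at 237 CPM lay below every HF library. Of 17 regulators of muscle formation, 14 were in the table and 4 of these, PAX3, MYOG, CDH15 and MUSK, were at 0 in all 8 libraries. MEF2C, a transcription factor that other cell types also use, was the one tested, at 26.9 ± 5.51 CPM for HF and 31.0 ± 8.18 for LF (log2 fold change -0.20 ± 0.21, edgeR adjusted p = 0.709). MYOD1 had 1 count in all, in HF-3, and the satellite cell factor PAX7 had 8 counts in LF-3, 2 in HF-3 and 1 in LF-1. Of 10 heart markers, 6 were in the table, NPPA was at 0 in every library, and MYBPC3, the heart form of myosin-binding protein C, was at 3.53 CPM in LF-3 and 7.63 in HF-3 against 2.71 to 18.0 elsewhere. Neither MYBPC3 (log2 fold change 0.71 ± 0.56) nor the heart myosin MYH6 (-0.35 ± 0.97) passed edgeR's test (adjusted p = 0.595 and 0.906). Among tested genes outside every list, MYH8, a myosin heavy chain of developing muscle in mammals, had the highest ratio of LF-3 to the median of the other 7 libraries, at 79.0, with 31.7 CPM in LF-3 and 5.52 in HF-3. The other 14 of the 15 genes ranked this way, at ratios of 5.64 to 30.9, were C12ORF65, STC2, RFX5, ECSCR, PLS1, EEF1A2, LRFN2, SLC15A2, APELA, AQP4, WASHC1, MMEL1, C10ORF143 and TCERG1L. Of these, RFX5, ECSCR, PLS1, LRFN2, APELA, C10ORF143 and TCERG1L were not highest in LF-3. APELA, for example, was at 51.7 CPM in LF-3 and 280 in LF-4. EEF1A2, a translation elongation factor of muscle and neurons in mammals, was at 8.77 CPM in LF-3 and 3.73 in HF-3, its second-highest library.

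Only 8 of the 17 skeletal genes passed the low-count filter, and HF against LF was tested for these alone. The other 9, TNNT3, TNNC2, TNNI1, TNNC1, MB, CASQ2, MYBPC1, MYOZ1 and the row listed as MYL2, did not reach it. Of the 8, ALPK3 alone passed, beside 0.647% of the 10511 symbols tested (68 genes). It was higher in HF, as were 0.295% of symbols, and no skeletal gene passed as lower, as 0.352% of symbols did. The other 7 had negative log2 fold changes, as 49.8% of tested symbols did, from -0.76 ± 0.97 for ACTA1 to -2.54 ± 1.81 for TTN, with edgeR adjusted p from 0.514 to 0.768. With both HF-3 and LF-3 left out, the values were 0.03 for ACTA1, 0.18 for NEB and 1.38 for TTN (adjusted p = 0.992, 0.920 and 0.481), while ACTN2 at -0.30 and LDB3 at -0.80 stayed negative (0.906 and 0.721). TNNI2 and MYL1 did not pass the low-count filter in that fit. The median over the 8 was -1.44, and 1.90 without LF-3, where HF-3 remained. Without both HF-3 and LF-3 it was 0.105, over the members tested in that fit. The median over all tested symbols was 0.0016 on all 8 libraries.

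ALPK3, an alpha-kinase gene of striated muscle in mammals and the one member that passed edgeR's test, followed none of this. It was at 22, 15.1, 28.1 and 7.64 CPM in HF-1 to HF-4 and at 2.41, 2.66, 1.30 and 0.851 CPM in LF-1 to LF-4. All HF libraries lay above all LF libraries, as happened in either direction for 9.16% of tested symbols, and LF-3 was its second-lowest library. The mean was 18.2 ± 8.83 CPM in HF against 1.81 ± 0.869 in LF, 10.1-fold higher in HF (log2 fold change 3.34 ± 0.48, edgeR adjusted p = 0.0195). Both assembled transcript models of the gene carried it, at 0.76 to 2.1 FPKM in HF and 0.13 to 0.31 in LF for one and 0.56 to 2.87 and 0 to 0.16 for the other, and the RefSeq row was at 0 throughout. The call was kept in 4 of the 8 fits that each left out 1 library. Without HF-1, HF-3, LF-1 or LF-3 the adjusted p was 0.0774, 0.0501, 0.0513 or 0.0635, at log2 fold changes of 3.06 to 3.49. Against LF-4 alone, the LF library with W transcripts, the log2 fold change was 4.41 (adjusted p = 0.0528).

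**Figure D3:**
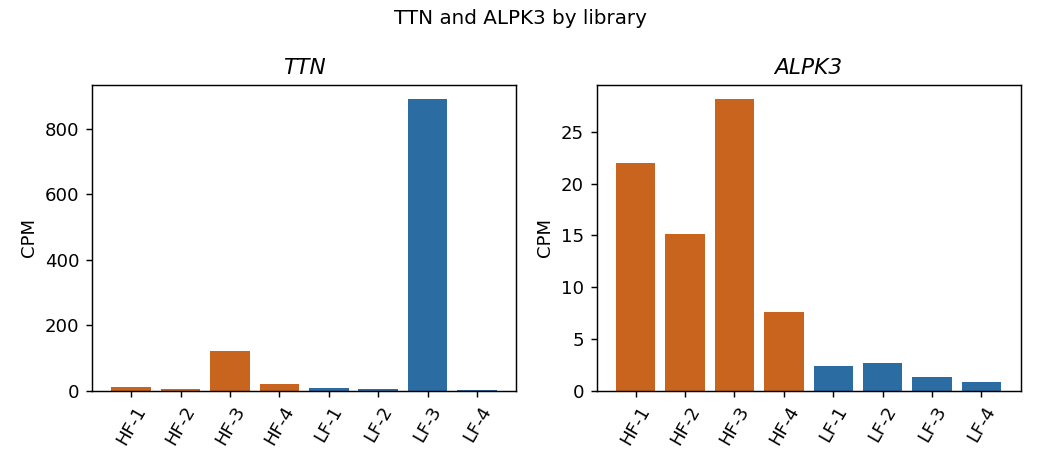
TTN (left) and ALPK3 (right) in the 8 libraries, as bars of CPM from 0, with HF in orange and LF in blue. TTN is high in LF-3 at 889 CPM and then in HF-3 at 121 CPM, whereas ALPK3 is higher in all 4 HF libraries (7.64 to 28.1 CPM) than in any LF library.

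The smooth muscle genes were detected in all libraries, and most were ordered otherwise than the skeletal genes. ACTA2, MYH11, TAGLN and SYNPO2 were each higher in LF-1, LF-2 and LF-3 than in any of the 4 HF libraries, and LF-4 lay within the HF range or below it. LF-1 to LF-3 above all HF libraries was seen in 4 of the 7 smooth muscle genes, against 6.48% of tested symbols. LF-1 to LF-3 were above LF-4 as well in the same 4, against 2.89%. Of 29 other smooth muscle symbols tested, 4 had the first order and 3 the second. The first was also seen in 0 of 9 pericyte, 1 of 12 endothelial, 2 of 8 adipocyte and 0 of 9 fibroblast markers. LF-4 was the lowest LF library for 7 of 7, against 31.0% of tested symbols. It was also lowest for 17 of the 29 other smooth muscle symbols, 8 of 9 pericyte, 9 of 12 endothelial and 7 of 9 fibroblast markers tested, and for 1 of 8 adipocyte markers. Members were chosen with earlier results known, so these counts are a description. None of the 7 passed edgeR's test between HF and LF at an adjusted p of 0.05, while 3 had an unadjusted p under 0.05 (ACTA2, MYH11 and MYOCD), against 15% of tested symbols (1575 genes). DESeq2 called ACTA2, beside 5.67% of symbols.

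ACTA2, the smooth muscle alpha-actin, was at 147, 186, 215 and 221 CPM in HF-1 to HF-4 and at 511, 379, 378 and 172 CPM in LF-1 to LF-4. LF-1 to LF-3 lay above all HF libraries and LF-4 within their range. The mean was 192 ± 33.8 CPM in HF against 360 ± 140 in LF (SD, n = 4 each; log2 fold change -0.91 ± 0.29, edgeR adjusted p = 0.184). MYH11, the smooth muscle myosin heavy chain, was at 165, 210, 128 and 195 CPM in HF-1 to HF-4 and at 338, 366, 366 and 152 CPM in LF-1 to LF-4. Here too LF-4 alone of the LF libraries overlapped HF. Its log2 fold change was -0.81 ± 0.27 (edgeR adjusted p = 0.206).

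Leaving out LF-4, the LF library that overlapped HF, brought both genes past the threshold. Dropping it removes that overlap, so the 2 calls are a description. For each gene it was the 1 call among the 8 fits that each left out 1 library. Without LF-4, ACTA2 was at a log2 fold change of -1.14 (edgeR adjusted p = 0.0345) and MYH11 at -1.03 (0.0362). In that fit 92 of 10615 symbols were called (0.867%). The HF libraries then all have W transcripts and the 3 LF libraries lack them, so fat group and W transcripts cannot be told apart there. With W transcripts as a covariate, which sets the HF libraries against LF-4, the log2 fold change was 0.16 for ACTA2 (adjusted p = 0.792) and 0.19 for MYH11 (0.729). LF-4 is 1 library, so that fit takes its spread from the others.

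The actin-binding protein transgelin (TAGLN) was at 20.6, 26.3, 25.2 and 31.6 CPM in HF-1 to HF-4 and at 57.6, 33.6, 33.3 and 17.8 CPM in LF-1 to LF-4 (log2 fold change -0.45 ± 0.30, edgeR adjusted p = 0.522). Synaptopodin 2 (SYNPO2), an actin-bundling protein of dense bodies and Z-discs, lay between 31.9 and 44.1 CPM in HF and at 58.0, 46.9, 50.4 and 22.9 CPM in LF-1 to LF-4. For both genes LF-4 was below every HF library. MYLK lay between 188 and 244 CPM in HF and was at 345, 210, 296 and 191 CPM in LF-1 to LF-4, so that LF-2 overlapped HF as well. RGS5, a damper of G protein signalling, had no order by group, with 61.0 to 148 CPM in HF and 66.0 to 133 in LF (log2 fold change 0.18 ± 0.29, edgeR adjusted p = 0.823).

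By group means, MYOCD ran the other way from ACTA2, MYH11 and TAGLN, genes it drives in mammals. It was at 8.42, 13, 20.1 and 10.6 CPM in HF-1 to HF-4 and at 7.80, 8.34, 6.36 and 4.74 CPM in LF-1 to LF-4. All HF libraries were above all LF libraries, although HF-1 exceeded LF-2 by very little. The mean was 13.04 ± 5.08 CPM in HF against 6.81 ± 1.61 in LF, a log2 fold change of 0.94 ± 0.30, which missed the threshold (edgeR adjusted p = 0.180). Its groups did not overlap, which held for 1 of the 7 smooth muscle genes, against 9.16% of tested symbols. The opposite direction was not kept with W transcripts as a covariate, which sets the HF libraries against LF-4. There the log2 fold change was 1.46 for MYOCD and also positive for ACTA2 (0.16), MYH11 (0.19) and TAGLN (0.54). The MYOCD level is a sum over 17 rows, 11 of them above 0, at 0.91 to 4.11 FPKM in all. Its reads moved between rows from library to library. For example, 1 row held 147 counts in HF-1 and 0 in HF-2, and another held 23.9 and 157.5.

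The calcium-activated potassium channel subunit KCNMB1, a smooth muscle marker, could be read through 3 rows that carry its RefSeq accessions but are listed as KCNMB2. These held 1.91 to 2.60 CPM in HF and 4.91, 3.06, 3.43 and 1.13 CPM in LF-1 to LF-4. LF-1 to LF-3 were thus above all HF libraries and LF-4 below them, the order seen for TAGLN and SYNPO2 (log2 fold change -0.40 ± 0.41, edgeR adjusted p = 0.702). This reading was added after the data were seen.

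**Figure D4:**
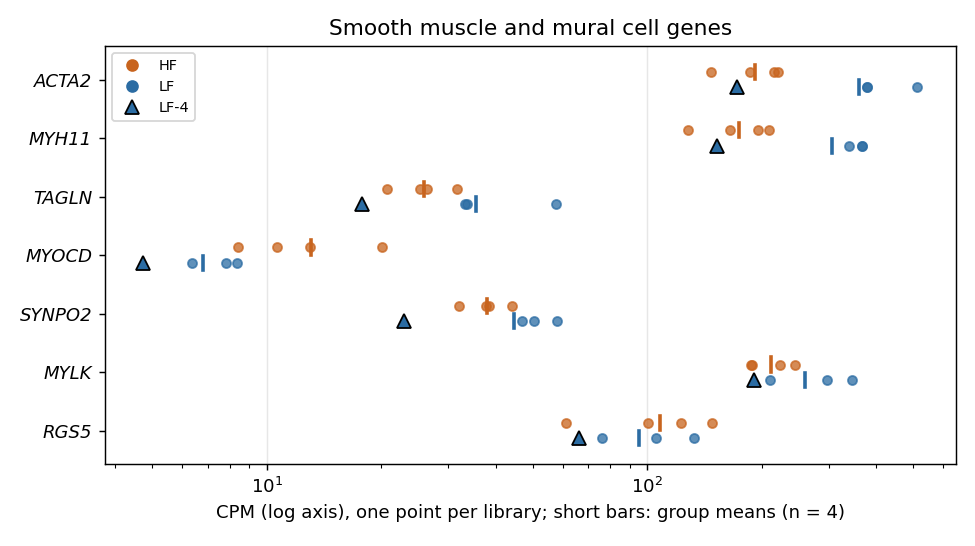
Level of the 7 smooth muscle and mural cell genes in the 8 libraries, 1 point per library on a log axis of CPM, HF in orange and LF in blue, with a short bar at each group mean (n = 4). For ACTA2, MYH11, TAGLN and SYNPO2, 3 LF points lie to the right of all HF points and the marked LF-4 lies at or left of them, and for MYOCD the HF points lie to the right.

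Other genes of smooth muscle contraction had fold changes in both directions. Of 36 symbols, 30 were in the table and 29 were tested. Some are earlier and current symbols of the same gene, such as GUCY1A3 and GUCY1A1, and were counted apart. None passed edgeR's test, 7 had an unadjusted p under 0.05 (against 15% of tested symbols) and DESeq2 called 4 (against 5.67%). The log2 fold change was negative for 19 and positive for 10, with a median of -0.07. Their summed level overlapped, at 3418 to 3773 CPM in HF and 3332 to 3811 in LF. Smoothelin (SMTN), of contractile smooth muscle, averaged 21.4 ± 2.41 CPM in the HF and 38.5 ± 8.52 CPM in the LF libraries (log2 fold change -0.85 ± 0.18, edgeR adjusted p = 0.0740). For SMTN every LF library, LF-4 included, was above every HF library. The groups did not overlap for 4 of the 29 symbols, SMTN among them, against 9.16% of tested symbols. Of these 4, PDLIM7 alone was higher in HF. The light chain MYL9 also ran mostly the other way from SMTN. It was at 277, 130, 195 and 119 CPM in HF-1 to HF-4. In LF-1 to LF-4 it was at 123, 88.1, 72.5 and 34.6 CPM, so that LF-1 overlapped HF.

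Markers of neighbouring vessel and stromal cells were read beside the smooth muscle genes. The 7 smooth muscle genes summed to 690, 851, 670 and 840 CPM in HF-1 to HF-4 and to 1394, 1150, 1263 and 627 CPM in LF-1 to LF-4. The 12 endothelial markers, all in the table, summed to 3589 to 7451 CPM in HF and 6157 to 8631 in LF, with LF-4 at 6409. PECAM1, an adhesion protein of endothelium, was at 812 ± 212 CPM in HF against 1373 ± 180 in LF (log2 fold change -0.76 ± 0.20, edgeR adjusted p = 0.123). It was the 1 endothelial marker of 12 whose groups did not overlap, against 9.16% of tested symbols, and LF-4 at 1490 CPM was not low for it, unlike for the 9 given above. VWF, the clotting factor carrier of endothelium, was at 2375 ± 758 and 3480 ± 608 CPM (-0.55 ± 0.25, edgeR adjusted p = 0.331). The pericyte markers, 10 of 13 in the table, summed to 757 to 1326 CPM in HF and 602 to 1123 in LF, with LF-4 lowest. Their smallest p-values were those of FOXS1, at 0.976 ± 0.528 CPM for HF and 0.586 ± 0.392 for LF (edgeR adjusted p = 0.636), and MCAM, at 66.1 ± 26.3 and 56.8 ± 10.3 (0.753). The fibroblast and myofibroblast markers, 10 of 11 in the table, summed to 13655 to 22931 CPM in HF and 8297 to 19959 in LF, again with LF-4 lowest. FAP, a protease of activated fibroblasts, was at 116 ± 37.7 and 75.9 ± 19.2 CPM in HF and LF (edgeR adjusted p = 0.279), and the cytoplasmic actin ACTB at 5635 ± 1789 and 4078 ± 643 (0.402). The adipocyte sum was highest in LF-4, at 87776 CPM, of which the triglyceride lipase PNPLA2 gave 64298; the other 7 genes summed to 23478 CPM in LF-4 and to 25304 in LF-2. PNPLA2 was at 18729 ± 5155 CPM for HF and 41894 ± 16133 for LF (log2 fold change -1.16 ± 0.33, edgeR adjusted p = 0.143). CIDEC, a lipid droplet protein, was at 145 ± 68.8 and 79.8 ± 11.9 CPM (0.86 ± 0.30, adjusted p = 0.216). No member of these 4 lists passed edgeR's test. An unadjusted p under 0.05 was seen for 0 of 9 pericyte, 2 of 12 endothelial, 1 of 9 fibroblast and 3 of 8 adipocyte genes tested. The share over all tested symbols was 15%. DESeq2 called 0, 1, 0 and 2, against 5.67% of symbols. Of mesothelial markers, WT1 and TBX18 had log2 fold changes of -0.87 ± 0.33 and 0.71 ± 0.32 (edgeR adjusted p = 0.260 and 0.336), and of gut and liver markers, VIL1 and ALB had 0.78 ± 0.38 and -0.12 ± 1.56 (0.378 and 0.980). The part of these cell types in the smooth muscle result was not tested.

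**Figure D5:**
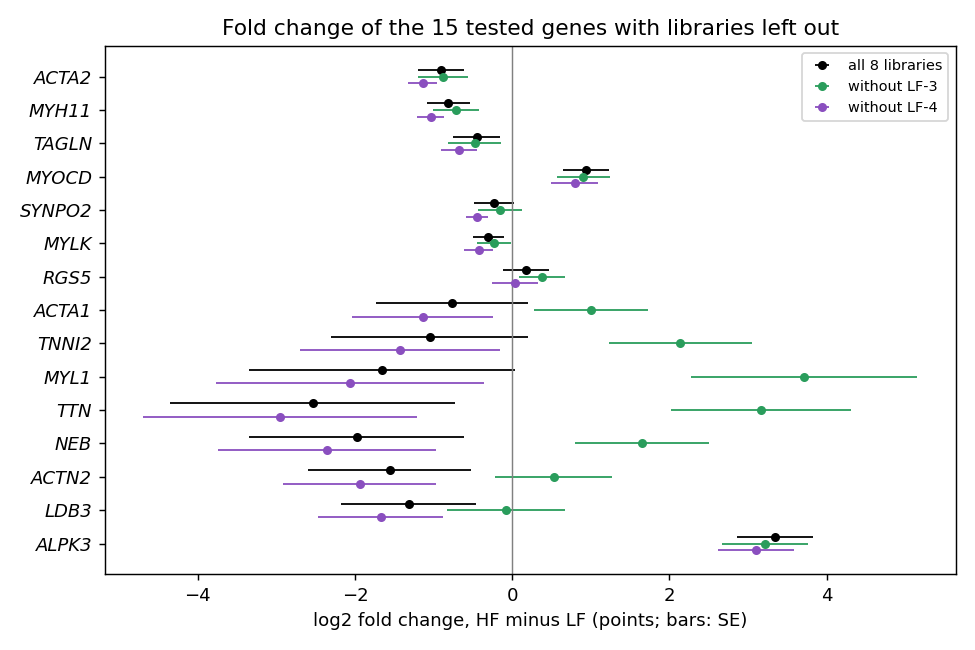
Log2 fold change, HF minus LF, of the 15 tested genes, with bars for SE, in the fit on all 8 libraries (black), without LF-3 (green) and without LF-4 (purple). The skeletal genes change sign when LF-3 is left out (TTN from -2.54 to 3.16), except LDB3 and ALPK3, whereas ACTA2 stays negative (-0.91 on all libraries, -1.14 without LF-4).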

How the data were processed

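RNA-seq libraries of abdominal fat were grouped by their titles. The authors deposited estimated counts and FPKM per transcript and library, per the file headers. The submitters' processing notes list Bowtie2 2.2.8 with TopHat2 2.1.1 but not their roles; quantifier, build and strandedness were not given in the sources used here. Whether reads of overlapping and antisense genes were told apart is therefore not known. The lncRNA table was not used here.

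Of 48592 mRNA rows, 2137 without a symbol (0.839% to 0.966% of counts) were left out. The 152 rows of the members, 89 of them above 0, were rounded and added per symbol. The main test was edgeR 4.0.16 (R 4.3.3), quasi-likelihood, with TMM scaling, filterByExpr and Benjamini-Hochberg adjustment over all symbols tested, called under 0.05. A positive log2 fold change is higher in HF, SE is its size over the root of F, and levels are CPM. The script was tested on simulated counts.

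Alternatives were DESeq2 1.42.0, its size factors, no filter, limma 3.58.1 on log2(FPKM + 1) at a mean FPKM of at least 0.5, a replicate block, a W covariate (over 100 counts), and libraries left out. Reading rows by accession was added after seeing the data. Members and lists were chosen with earlier results of these data known. All members are named, and of each other list the 2 genes with the smallest p and any past the threshold, with the 15 unlisted genes of highest LF-3 to median ratio (CPM + 0.1); 1 gene so chosen is not reported here, and other genes were chosen after their values were seen. Intervals and limits from counts cover counting error only.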

Additional observations from a re-analysis of the deposited data

Results flagged for a closer look

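In 20 of 43 groups of 4 libraries examined (46.5%), 1 library stood apart from the other 3 by Dixon's criterion. This is the gap to the nearest over the range of the 4. The criterion is set to flag about 1 in 20 groups of normally distributed values, whereas these are CPM, some from few counts. LF-3 and HF-3 were also already known to stand apart, so the flags are a description and cannot be weighed against that rate. LF-3 was that library in 12 groups, HF-3 in 7 and LF-4 in 1.

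In LF, LF-3 was far above the rest for ACTA1 (128 CPM), TNNT3 (15.1), TNNC2 (1.25), TNNI2 (9.56), MYL1 (23.8), TTN (889), NEB (60.8), MB (1.90), ACTN2 (12.9), CASQ2 (2.78), MYBPC1 (18.0) and MYOZ1 (1.62). In HF, HF-3 was far above the rest for TNNT3 (3.41 CPM), TNNI2 (3.59), MYL1 (6.29), TTN (121), NEB (11.9), TNNC1 (0.449) and MB (1.17). The genes of these lists come from the same 2 libraries and are not independent of each other. LF-4 was far below the other LF libraries for MYH11, at 152 CPM.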

How the results depend on the processing

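Over the 15 tested members and their alternatives, 188 values kept direction and side of the threshold, 25 changed sign, 3 newly passed and 6 no longer passed. All genes called numbered 68, and 596 with DESeq2, 128 with the W covariate, 9 with the replicate block, 7 without HF-3 and LF-3, and 2 to 92 with 1 library left out. Smooth muscle genes called went from 0 to 1 with DESeq2 (ACTA2, adjusted p = 0.0403) and to 0 to 2 with 1 library left out; skeletal genes called went from 1 to 0 with the W covariate and without HF-3 and LF-3 (ALPK3, adjusted p = 0.105), and to 0 to 1 with 1 left out. With the W covariate the median log2 fold change was 0.54 for smooth and 2.31 for skeletal genes; with 1 library left out it ran from -0.44 to -0.12 and from -2.40 to 1.90. The W covariate turned ACTA2 (0.16), MYH11 (0.19), TAGLN (0.54), SYNPO2 (0.73), MYLK (0.14), ACTA1 (2.48), TNNI2 (2.13), MYL1 (3.21), TTN (4.2), NEB (1.30), ACTN2 (1.70) and LDB3 (1.30) positive. Leaving out HF-3 and LF-3 turned ACTA1 (0.032), TTN (1.38) and NEB (0.18). With 1 library left out, ranges crossing 0 were -1.74 to 1.004 for ACTA1, -2.49 to 2.14 for TNNI2, -2.06 to 3.71 for MYL1, -4.31 to 3.16 for TTN, -3.46 to 1.65 for NEB, -2.40 to 0.53 for ACTN2 and -0.0051 to 0.38 for RGS5. Beyond what the libraries left out show, the cause was not tested. Over all tested symbols, same-numbered libraries did not deviate together (r = 0.0080, -0.272, -0.181 and 0.0759). Whether they share anything besides the number was not tested. Under the replicate block TNNI2 (0.036), MYL1 (0.24) and TTN (0.084) were positive and ALPK3 still passed (edgeR adjusted p = 0.0299). The 9 untested skeletal genes did not reach the low-count filter, and some of them had only a few counts outside LF-3 and HF-3.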
